A study of Equus caballus with 22 samples.

Results

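MET and TGFB1 are the receptor gene of one growth factor pathway and the ligand gene of another, and both were measured in horse endometrium, the lining of the uterus, during early pregnancy. They were chosen by symbol: every non-control probe of the array whose accession is a horse RefSeq transcript of either gene was taken. This gave 4 probes of 43603 on the array, or 2 genes of the 675 that could be named. MET is represented by 3 probes, all carrying the transcript accession NM_001114147 (probes A_69_P001421, A_69_P003382 and A_69_P003381, called MET probes 1, 2 and 3 here), and TGFB1 by 1 probe, A_69_P001041, with accession NM_001081849. All 4 probes were well above background on 22 of 22 arrays, were saturated on none, and passed the filter on dim probes.

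The samples were endometrial biopsies of warmblood mares, hybridised 1 per array to 1-colour Agilent horse arrays. The 4 groups were pregnant mares at day 12 (6 arrays), the matching non-pregnant control samples at day 12 (6 arrays), pregnant mares at day 8 (5 arrays) and their control samples at day 8 (5 arrays). Pregnant samples were taken once the embryo had been recovered, and every mare gave both a pregnant and a control sample, so that pregnancy was compared within mares. The labels name no treatment, genotype or age, and they do not say whether a mare number stands for the same animal on both days, so the comparisons between days treat the mares as different animals.

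The MET protein is a receptor tyrosine kinase on the surface of epithelial cells. Its ligand is hepatocyte growth factor, HGF, which is secreted mostly by neighbouring stromal cells, and binding starts signalling that drives cells to divide, move and form tubes. TGFB1 encodes transforming growth factor beta 1, a ligand secreted in a latent form and held in the matrix, which signals after activation through a pair of serine/threonine kinase receptors and SMAD proteins, restrains the growth of many epithelia and promotes matrix deposition. In the uterus of mammals both pathways are known for signalling between stroma and epithelium around the time the conceptus arrives.

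Levels below are log2 intensities of a probe relative to the 75th percentile of the intensities on its array, so that 0 stands for a spot at that percentile and negative values for dimmer spots. Levels are compared between samples for the same probe and never between probes, because probes differ in how well they hybridise. On the linear scale MET probe 1 ranged from 2694 to 26073 intensity units over the 22 arrays, MET probe 2 from 60.6 to 1103, MET probe 3 from 59.5 to 1001 and the TGFB1 probe from 188 to 909. Between 74.2% and 92.9% of the spots of an array were well above background, and the 75th percentile ranged from 577 to 1863 units. The arrays of mares 4 and 6 at day 12, which share 1 slide and 1 scan day, had 75th percentiles of 636 to 744 units, and the other 8 day 12 arrays stood between 1128 and 1863. No slide or scan day held arrays of both days and the image analysis software was of another version on each day per the file headers, so the day of sampling cannot be told apart from slide, scan day and software version. The number of arrays limits the precision of every value.

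MET was higher in pregnant endometrium at day 12 than at day 8 on all 3 probes, by 1.60-fold on MET probe 1, 3.54-fold on MET probe 2 and 3.30-fold on MET probe 3. In this comparison 24.3% of all probes passed the test, and MET probe 1 passed in only 9 of 15 other settings. Control samples also stood higher at day 12, by 1.22-fold, 2.05-fold and 1.97-fold in the same order of probes, without passing. Within mares, MET levels at day 12 of pregnancy were above those of the control sample in 5 of 6 mares on each probe, but none of the probes passed the test over all probes. At day 8 the pregnant and control samples did not differ beyond the spread between mares. TGFB1 did not pass the test in any of the 5 comparisons. Its mean change within mares was above 0 at day 12, with 4 of 6 mares higher with pregnancy, and below 0 at day 8. At day 8 it was lower in 5 of 5 mares, as were 4.25% of all probes, but by only -0.0066 in mare 1 and -0.00075 in mare 4.

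**Figure D1:**
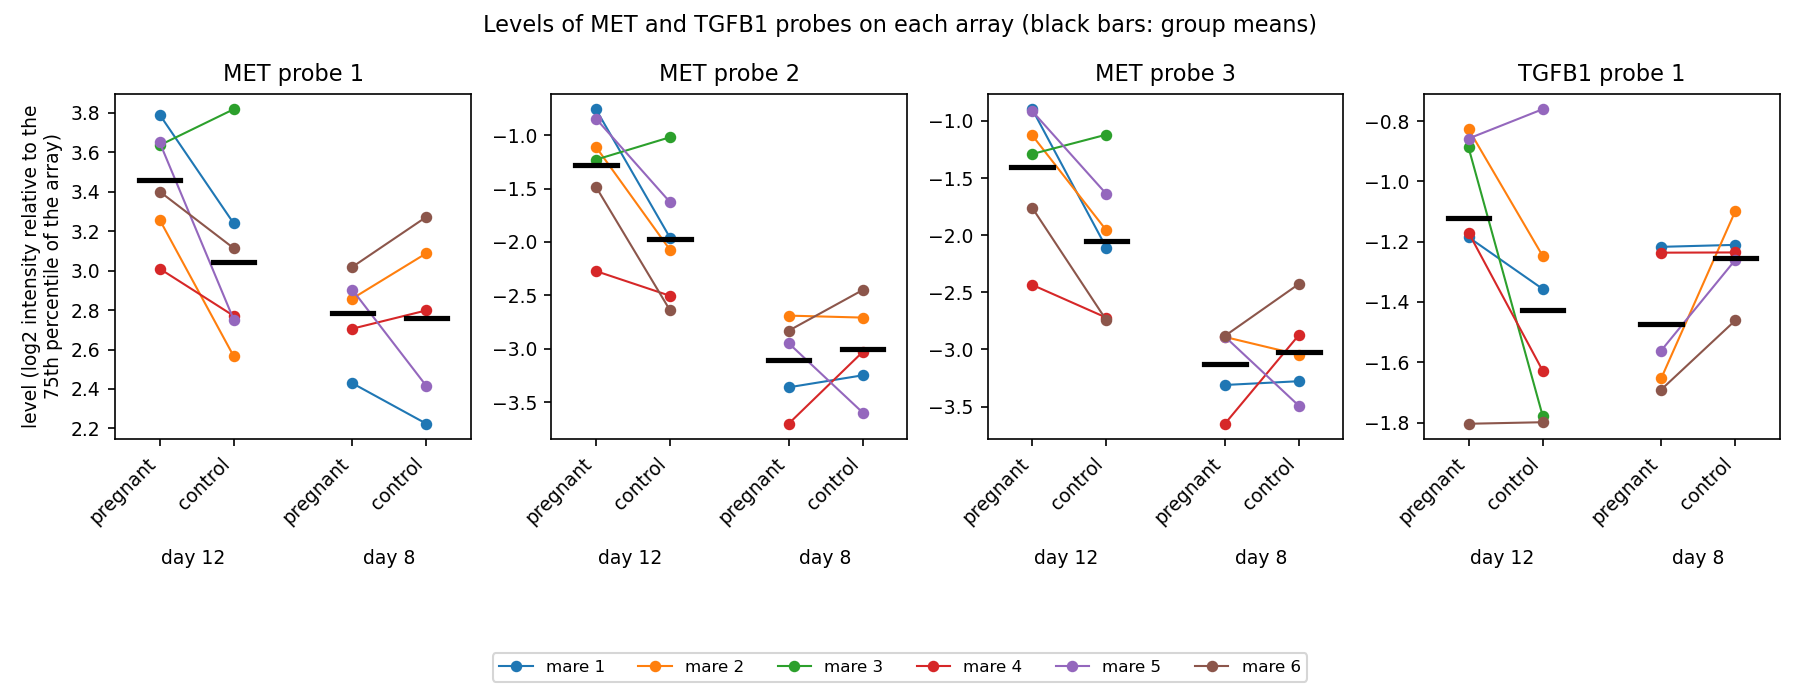
Level of each probe on each array, as log2 intensity relative to that array's 75th percentile, for pregnant and control samples of day 12 and day 8. Points are arrays, lines join the pregnant and control sample of a mare, and black bars are group means. On MET probes 2 and 3 all 6 pregnant arrays of day 12 lie above all 5 pregnant arrays of day 8, whereas the TGFB1 groups overlap.

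The levels of MET probe 1 in pregnant mares at day 12 ran from 3.01 through a median of 3.52 to 3.79. In the control samples of the same mares they ran from 2.57 through 2.94 to 3.82. The 2 groups overlapped because mare 3 had the highest of the control values, whereas the pregnant values of the other 5 mares were each above their own control value. Pregnant samples averaged 3.46 ± 0.29 and control samples 3.04 ± 0.45 (SD, n = 6 each).

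The change within mares on MET probe 1 at day 12 had a lowest value of -0.18 in mare 3, a median of 0.42 and a highest value of 0.90 in mare 5. The fitted difference, pregnant minus control, was 0.41 ± 0.14 log2 (SE, n = 6 mares), or 1.33-fold, with a 95% interval of 0.11 to 0.72. It did not pass the threshold, which was an adjusted p of 0.05 in limma with Benjamini-Hochberg adjustment over 38457 probes (adjusted p = 0.254).

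MET probe 2 had levels from -2.27 through a median of -1.17 to -0.76 in pregnant mares at day 12. Its control levels ran from -2.64 through -2.02 to -1.02. Here too mare 3 had the highest control value and was the only mare whose pregnant value was below its control value, with a change of -0.21, while mare 1 had the largest change with 1.20. The fitted difference was 0.69 ± 0.20 log2 (1.61-fold, 95% interval 0.25 to 1.13, n = 6 mares, adjusted p = 0.192).

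MET probe 3 gave nearly the same picture, with levels from -2.43 through -1.21 to -0.90 in pregnant samples and from -2.74 through -2.03 to -1.12 in control samples at day 12. Its difference was 0.64 ± 0.20 log2 (1.56-fold, 95% interval 0.22 to 1.07, n = 6 mares, adjusted p = 0.206). On both probes the lowest pregnant values belonged to mares 4 and 6, whose arrays were the dim ones, and the part of array brightness in these levels was not tested. The change within these mares was 0.23 in mare 4 and 1.16 in mare 6 on MET probe 2, and 0.29 and 0.98 in the same order on MET probe 3.

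So 0 of the 4 probes of both genes passed at day 12, where 0.265% of all probes tested did, 102 in number. Without adjustment 4 of 4 had a p below 0.05 in the same limma fit, where 12.5% of all probes did. These 4 probes stand for 2 genes, and the 3 MET probes carry the same accession and are not independent. Each of the 3 MET probes was higher in at least 5 of 6 mares, as were 14.0% of all probes. For the mean of the 3 MET probes, the change was 0.58 ± 0.45 (SD, n = 6 mares) and an exact two-sided sign-flip permutation test over mares gave p = 0.0625, the smallest p possible with 6 mares being 0.0312.

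Leaving out mare 3 raised the difference in MET the most on all 3 probes, while on MET probe 1 leaving out mare 5 lowered it to 0.32. Without mare 3 the changes at day 12 averaged 0.53 ± 0.28 on MET probe 1, 0.87 ± 0.39 on MET probe 2 and 0.81 ± 0.34 on MET probe 3 (SD, n = 5). In the limma fit without this mare MET probe 2 passed (adjusted p = 0.0396) and MET probes 1 and 3 did not (adjusted p = 0.0603 and 0.0511), in a fit where 977 probes passed in all. Leaving out any other mare brought no MET probe past the threshold.

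Both arrays of a mare lay on the same slide, so the changes can be read slide by slide. On MET probe 1 the mean change was 0.18 on slide 1 (mares 1 and 3), 0.69 on slide 2 (mare 2), 0.26 on slide 3 (mares 4 and 6) and 0.90 on slide 4 (mare 5). On MET probe 2 the 4 slides gave 0.50, 0.97, 0.69 and 0.78. The mean change was thus above 0 on each of the 4 slides for these probes. The background correction turned the direction of MET probe 1 relative to other probes. With normexp background correction the median of all probes at day 12 moved to 0.34, and relative to that median MET probe 1 stood at -0.099, MET probe 2 at 0.33, MET probe 3 at 0.31 and TGFB1 at 0.092.

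At day 8 MET showed no difference with pregnancy that exceeded the spread between mares. MET probe 1 had levels of 2.43, 2.86, 2.71, 2.90 and 3.02 in the pregnant samples of mares 1, 2, 4, 5 and 6, against 2.22, 3.09, 2.80, 2.41 and 3.27 in their control samples. The pregnant value was the higher one in 2 of 5 mares, and the ranges overlapped widely. The fitted difference was 0.023 ± 0.15 log2 (SE, n = 5 mares, 95% interval -0.31 to 0.36, adjusted p = 0.993).

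MET probe 2 had levels of -3.36, -2.69, -3.70, -2.95 and -2.83 in pregnant samples and of -3.25, -2.71, -3.03, -3.60 and -2.45 in control samples at day 8, in the same order of mares. Its difference was -0.10 ± 0.22 (95% interval -0.58 to 0.38, adjusted p = 0.978), and that of MET probe 3 was -0.10 ± 0.21 (95% interval -0.57 to 0.37, adjusted p = 0.977). Mare 5 was higher with pregnancy on all 3 probes, and mares 4 and 6 were lower on all 3. The share of all probes past the threshold at day 8 was 0.00%, while 5.83% had an unadjusted p below 0.05, none of them a MET or TGFB1 probe.

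**Figure D2:**
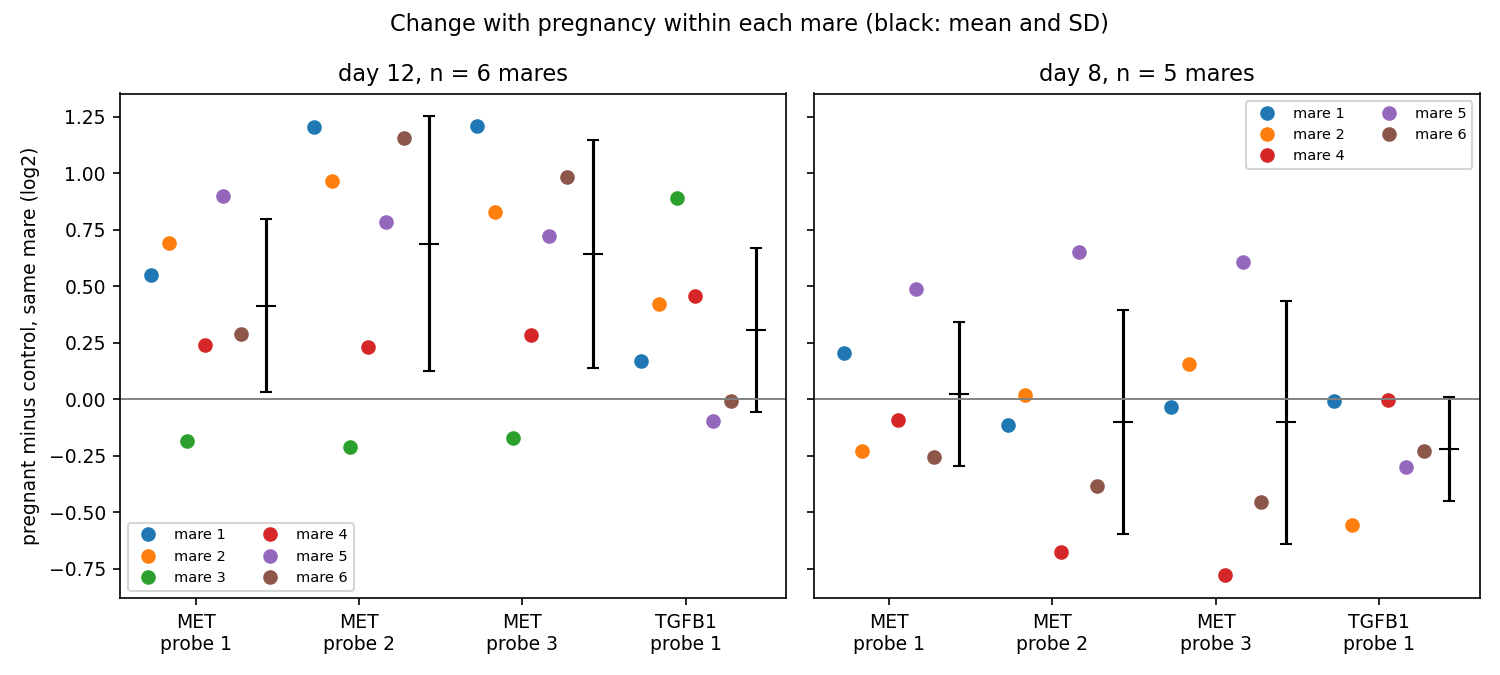
Change within each mare, pregnant minus control in log2, for the 3 MET probes and the TGFB1 probe at day 12 and day 8. Points are mares, black bars are the mean and SD, and a value above 0 means a higher level in the pregnant sample. At day 12 mare 3 is below 0 on the 3 MET probes and has the highest change of TGFB1, 0.89.

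The pregnancy effect was compared between days in the same fit, as the day 12 difference minus the day 8 difference. It was 0.39 ± 0.21 log2 on MET probe 1 (95% interval -0.065 to 0.85, adjusted p = 0.529), 0.79 ± 0.30 on MET probe 2 (adjusted p = 0.404) and 0.75 ± 0.29 on MET probe 3 (adjusted p = 0.419). So the effect of pregnancy on MET was not shown to differ between the days, and 0 of 4 probes passed where 0.0104% of all probes did. For the mean of the 3 MET probes, an exact two-sided permutation test of the day labels over the 11 changes gave a difference of 0.64 with an unadjusted p = 0.0433, and for TGFB1 0.52 with an unadjusted p = 0.0195. With normexp background correction the effect of MET probe 1 fell below the median of all probes, with a value of -0.16 relative to it, while MET probes 2 and 3 and TGFB1 remained above it.

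Between the days, MET in pregnant mares passed the test on all 3 probes. MET probe 1 averaged 3.46 ± 0.29 in pregnant mares at day 12 (SD, n = 6) and 2.78 ± 0.23 at day 8 (SD, n = 5), a difference of 0.67 ± 0.17 log2 (SE, 95% interval 0.30 to 1.05, adjusted p = 0.0161). The lowest day 12 value, 3.01, was just below the highest day 8 value, 3.02, so the ranges touched. MET probe 2 averaged -1.28 ± 0.55 at day 12 and -3.11 ± 0.42 at day 8, and its difference was 1.83 ± 0.28 (95% interval 1.21 to 2.44, adjusted p = 0.00189). MET probe 3 averaged -1.40 ± 0.60 at day 12 and -3.12 ± 0.35 at day 8, a difference of 1.72 ± 0.28 (adjusted p = 0.00246). On these 2 probes the lowest day 12 value, from mare 4, was still above the highest day 8 value.

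Large differences between the days were common in pregnant samples. In all, 24.3% of probes passed and 11.1% passed with the higher level at day 12, so that 3 of 4 probes passing is read against a high background. Those 3 are all MET probes and are not independent. MET probe 2 held rank 678 and MET probe 3 rank 959 of 38455 probes when ordered by p, and MET probe 1 rank 4836. Groups that did not overlap, with day 12 the higher, were found for 2 of the 4 probes and for 5.37% of all probes.

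The MET probes differed in how firmly they passed. MET probe 2 passed in 15 of 15 other settings of the analysis, and MET probe 3 in 14 of 15, the exception being normexp background correction (1.49 log2, adjusted p = 0.0619). MET probe 1 passed in 9 of 15. It lost its call with normexp (adjusted p = 0.356), with the authors' value table (adjusted p = 0.403), with the mare number as a replicate block (adjusted p = 0.0774) and with scan day as a random effect (adjusted p = 0.0650). Leaving out mare number 1 gave 0.52 with adjusted p = 0.0512, and leaving out mare number 5 gave 0.67 with adjusted p = 0.0546. Normexp moved the median of all probes in this comparison to 0.39, and relative to that median MET probe 1 stood at 0.11 and MET probe 2 at 1.22, against 0.70 and 1.85 without it.

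In control samples MET also stood higher at day 12 than at day 8, without passing the threshold. MET probe 2 averaged -1.97 ± 0.59 in day 12 controls (SD, n = 6) and -3.01 ± 0.45 in day 8 controls (SD, n = 5), a difference of 1.04 ± 0.30 log2 (2.05-fold, adjusted p = 0.0603). MET probe 3 differed by 0.98 ± 0.31 (1.97-fold, adjusted p = 0.0748) and MET probe 1 by 0.28 ± 0.26 (adjusted p = 0.522). The groups overlapped on all 3 probes. The count was thus 0 of 4 where 7.10% of all probes passed, although MET probe 2 passed in 3 of 15 other settings, quantile normalization among them (adjusted p = 0.0495).

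**Figure D3:**
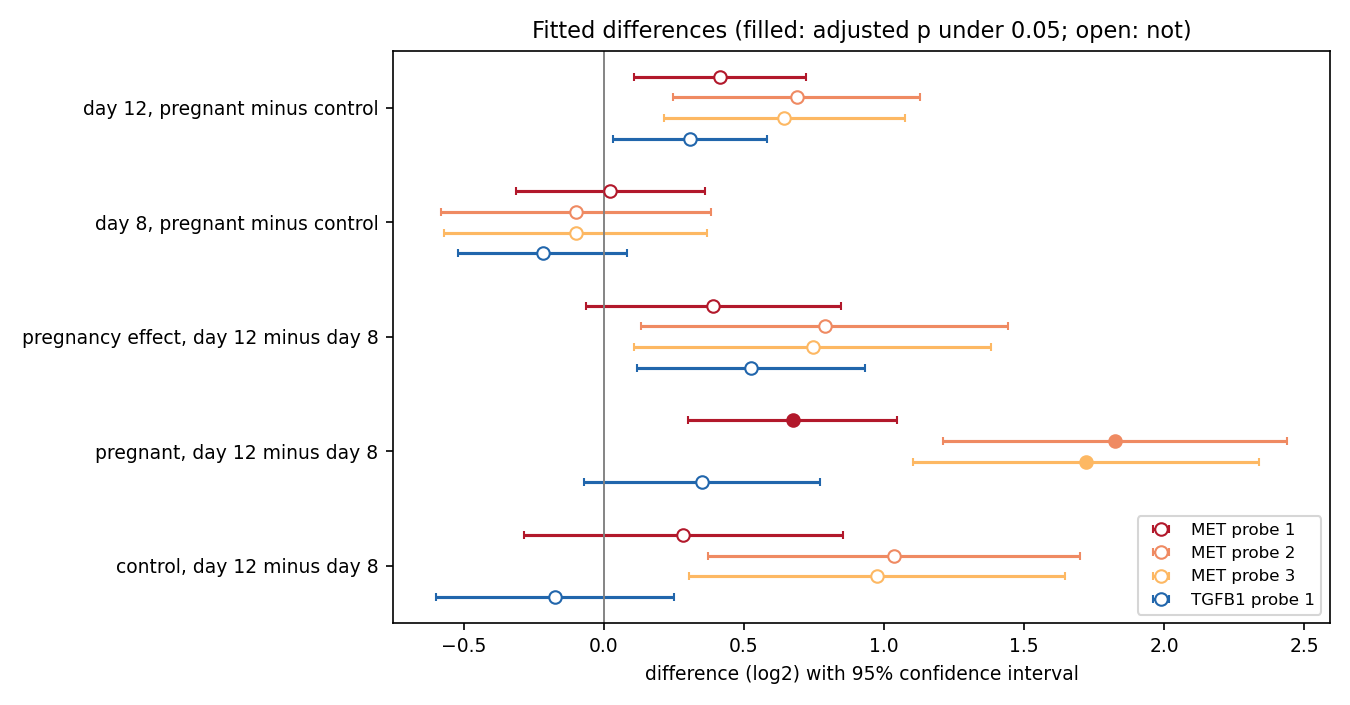
Fitted difference of each probe in the 5 comparisons, in log2, with 95% intervals from limma that are not adjusted for the number of probes. Filled points have an adjusted p under 0.05 and open points do not. Values above 0 mean higher in the pregnant samples, or higher at day 12 in the comparisons between days. The intervals of the 3 MET probes lie above 0 at day 12 and between days in pregnant samples, and those at day 8 span 0. Those of MET probes 2 and 3 also lie above 0 between control days and for the difference of effects. The TGFB1 interval lies above 0 at day 12 and for the difference of effects.

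Over the 4 groups MET thus had one order on MET probes 2 and 3, with pregnant samples of day 12 highest, then controls of day 12, then controls of day 8 and pregnant samples of day 8. The last 2 of these neighbours differed by less than their SD. On MET probe 1 the order was the same at the top, and the day 8 groups, at 2.78 and 2.76, were in the reverse order with a difference of 0.023.

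The 3 MET probes were compared for agreement, because they carry the same accession and are not independent measures of different genes. Over the 22 arrays the levels of MET probes 2 and 3 correlated with r = 0.990. Over the 11 changes within mares they correlated with r = 0.989, had the same sign in 11 of 11 pairs, and were never more than 0.17 log2 apart. MET probe 1 followed them less closely, with r = 0.797 against MET probe 2 and r = 0.777 against MET probe 3 over the 11 changes, and the same sign in 9 of 11 pairs with each. These correlations describe arrays that share slides and mares, and each probe pair was read from the same 22 hybridisations.

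**Figure D4:**
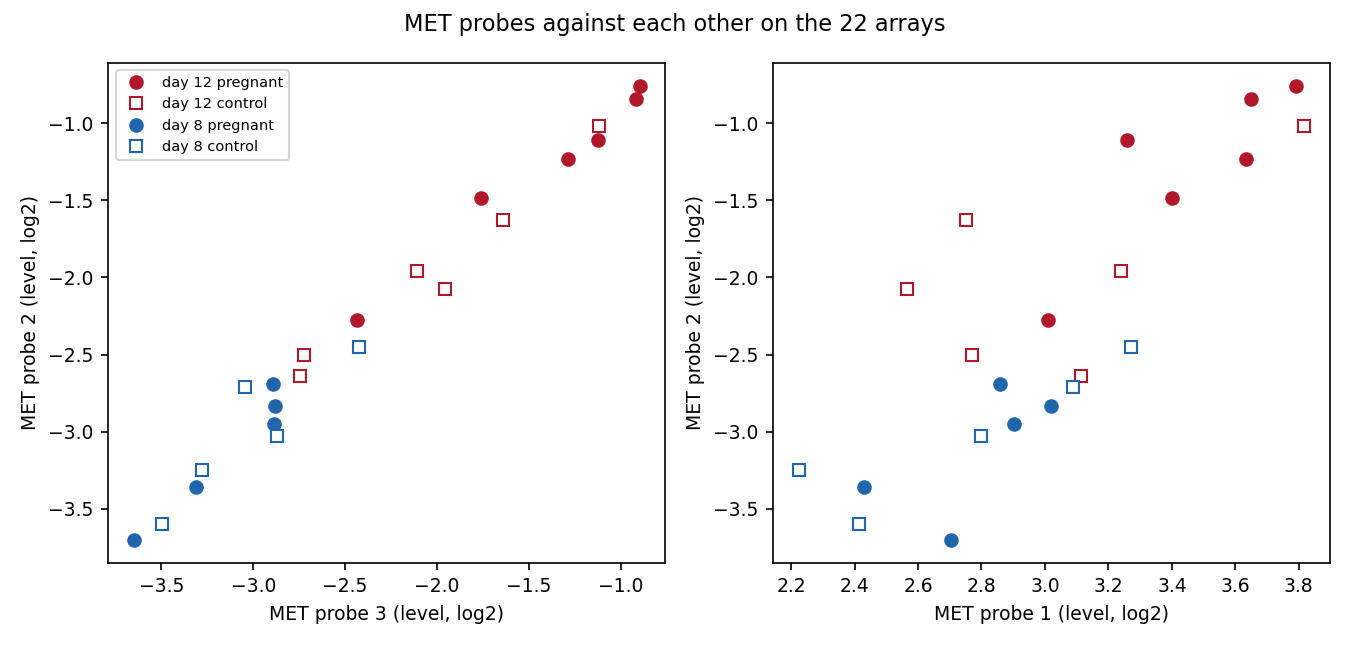
Level of MET probe 2 against MET probe 3 (left) and against MET probe 1 (right) on the 22 arrays, in log2 relative to the 75th percentile on each array. Each point is an array, filled circles are pregnant and open squares control samples, with day 12 in red and day 8 in blue. MET probes 2 and 3 lie close to a line (r = 0.990), and MET probe 1 scatters more widely against MET probe 2 (r = 0.822).

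The difference between the days was not equal on the 3 MET probes. In pregnant samples the day 12 minus day 8 difference of MET probe 2 exceeded that of MET probe 1 by 1.15 log2 (exact two-sided permutation p = 0.00433, and p = 0.0130 adjusted over 6 such tests). The excess of MET probe 3 over MET probe 1 was 1.05 (exact permutation p = 0.00433, adjusted p = 0.0130). In control samples the excess was 0.75 for MET probe 2 (exact permutation p = 0.0130, adjusted p = 0.0260) and 0.69 for MET probe 3 (exact permutation p = 0.0411, adjusted p = 0.0617). MET probes 2 and 3 differed from each other by 0.10 in pregnant samples (exact permutation p = 0.119) and by 0.062 in control samples (exact permutation p = 0.528). What part slide, scan day or software version had in the unequal difference cannot be told apart from the day.

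TGFB1 had levels from -1.80 through a median of -1.03 to -0.83 in pregnant mares at day 12. In the control samples of the same mares it had levels from -1.80 through -1.49 to -0.76. The groups overlapped over most of their range, with mare 6 low and mare 5 high in both. Pregnant samples averaged -1.12 ± 0.37 and control samples -1.43 ± 0.40 (SD, n = 6 each), and the fitted difference was 0.31 ± 0.13 log2 (SE, 1.24-fold, 95% interval 0.031 to 0.58, adjusted p = 0.343).

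The changes of TGFB1 within mares at day 12 were highest in mare 3, at 0.89, with a median of 0.30 and a lowest value of -0.097 in mare 5. Mares 1, 2, 3 and 4 were higher with pregnancy. An exact two-sided sign-flip permutation test over the 6 mares gave p = 0.125. Without mare 3 the mean change was 0.19 ± 0.25 (SD, n = 5), so that this mare, the one in which MET went the other way, raised the TGFB1 average by the most. By slide the mean changes were 0.53, 0.42, 0.23 and -0.097 on slides 1 to 4, the last from mare 5 alone.

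At day 8 TGFB1 had levels of -1.22, -1.65, -1.24, -1.56 and -1.69 in the pregnant samples of mares 1, 2, 4, 5 and 6, against -1.21, -1.10, -1.24, -1.26 and -1.46 in their control samples. All 5 pregnant values were below the control value of the same mare, as was so for 4.25% of all probes, although the gap was only -0.0066 in mare 1 and -0.00075 in mare 4. The groups overlapped. The fitted difference was -0.22 ± 0.14 log2 (95% interval -0.52 to 0.082, adjusted p = 0.861), and the exact two-sided sign-flip permutation test gave p = 0.0625, which is the smallest p that 5 mares allow.

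The difference in the effect of pregnancy on TGFB1 between the days was 0.52 ± 0.19 log2 (95% interval 0.12 to 0.93), and it did not pass over all probes (adjusted p = 0.371). Between the days, TGFB1 differed by 0.35 ± 0.19 in pregnant samples (adjusted p = 0.203) and by -0.17 ± 0.19 in control samples (adjusted p = 0.605). Ordered by mean, pregnant samples of day 12 came first at -1.12, then controls of day 8 at -1.25, controls of day 12 at -1.43 and pregnant samples of day 8 at -1.47. Each neighbour in this order lay within the SD of the wider group of its pair.

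MET and TGFB1 showed no relation across mares that passed a test. Over the 22 arrays the level of MET probe 1 correlated with that of TGFB1 with r = -0.033, and over the 11 changes, which mix days of unlike mean, with r = 0.066. At day 12 alone the 6 changes gave Pearson's r = -0.747 (exact permutation p = 0.0833) and Spearman's rho = -0.771 (exact permutation p = 0.103). Without the 2 mares farthest from the median of MET r was 0.222, over 4 mares, which are too few to judge the relation. MET probes 2 and 3 correlated with TGFB1 at r = -0.800 and -0.793 over the 6 changes of day 12, and at -0.494 and -0.552 over the 5 changes of day 8, where MET probe 1 had r = 0.216. Only the relation of MET probe 1 at day 12 was tested.

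Of the pathway around MET, a list of 50 genes for HGF, its receptor, their activating proteases and the kinases and targets downstream, 5 genes could be measured by name. They included MET itself, the beta-catenin gene CTNNB1, the hyaluronan receptor gene CD44, whose variant forms act as co-receptors of MET, and the immediate early gene FOS. HGF, the related receptor MST1R and the protease inhibitors SPINT1 and SPINT2 were not analysed here. Of the 4 genes other than MET, 3 were above 0 at day 12 with a median difference of 0.33 log2, against -0.019 for all probes, and 0 passed. At day 8, 3 of the 4 were above 0 with a median of 0.075 against -0.010, and 0 passed. Of all probes 0.265% passed at day 12 and 0.00% at day 8.

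In pregnant samples of day 12 against day 8, 1 of these 4 genes passed, where 24.3% of all probes did, and the median of the 4 was 0.48 against -0.026. It was CD44, which was higher at day 12 by 0.76 ± 0.19 log2 (SE, adjusted p = 0.0164). CD44 passed in 10 of 15 other settings, and not with scan day as a random block (adjusted p = 0.0804), normexp (adjusted p = 0.155) or the authors' value table (adjusted p = 0.329), nor without mare number 4 (adjusted p = 0.0753) or 5 (adjusted p = 0.0652). Within mares CD44 was higher with pregnancy at day 12 in 5 of 6 mares by 0.43 ± 0.19 (adjusted p = 0.373), and in 2 of 5 mares at day 8 (-0.20 ± 0.21, adjusted p = 0.926). In control samples of the 2 days 0 of 4 passed, where 7.10% of all probes did, with CD44 at 0.13 ± 0.29.

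Of the TGF-beta list of 65 ligands, receptors, latency and matrix proteins, SMAD regulators and target genes, 10 could be measured by name. They were TGFB1, the repressor gene SKI, the small proteoglycan genes DCN, BGN and FMOD, the gelatinase gene MMP9, the inhibin and activin subunit genes INHA and INHBA, the activin-binding follistatin gene FST, and TAGLN, a smooth muscle gene that TGF-beta induces. The receptors TGFBR1 and TGFBR2 and the other ligands TGFB2 and TGFB3 were not analysed here. Of the 9 genes other than TGFB1, 6 were above 0 at day 12 with a median of 0.13 against -0.019 for all probes, and 8 were at day 8 with a median of 0.23 against -0.010. In both comparisons 0 passed, where 0.265% and 0.00% of all probes did. In the comparison of effects and of control days it was likewise 0 of 9, where 0.0104% and 7.10% of all probes passed.

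Decorin, the DCN product, binds TGF-beta and also binds MET. DCN was at 0.17 ± 0.13 log2 with pregnancy at day 12 (5 of 6 mares higher, adjusted p = 0.642) and at 0.22 ± 0.14 at day 8 (4 of 5 mares higher, adjusted p = 0.866). The other 2 small proteoglycan genes of the list were at -0.13 ± 0.13 (BGN) and 0.030 ± 0.14 (FMOD) at day 12, each higher in 2 of 6 mares. At day 8 they were at 0.098 ± 0.14 and 0.23 ± 0.15, each higher in 4 of 5 mares. Between days in pregnant samples DCN was at -0.36 ± 0.16 (adjusted p = 0.124). Between days in pregnant samples 1 of the 9 genes passed, where 24.3% of all probes did, and their median was -0.21. It was TAGLN, which was higher at day 12 by 0.84 ± 0.28 log2 (adjusted p = 0.0462). TAGLN passed in 4 of 15 other settings, and not with slide (adjusted p = 0.0806) or scan day (adjusted p = 0.145) as a random block, nor without mare number 2 (adjusted p = 0.0846), 4 (adjusted p = 0.178), 5 (adjusted p = 0.0809) or 6 (adjusted p = 0.124). Within mares TAGLN was higher with pregnancy in 6 of 6 mares at day 12, as were 2.25% of all probes, by 0.90 ± 0.23 (adjusted p = 0.139). At day 8 it was higher in 5 of 5 mares, as were 4.02% of all probes, by 0.28 ± 0.25 (adjusted p = 0.910).

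Endometrium holds epithelium, stroma, vessels, muscle and leukocytes, and in such bulk samples fewer cells of a type and less RNA per cell cannot be told apart. Of 59 marker genes of these cell types 12 could be measured by name. Of these, 0 passed at day 12, at day 8, in the comparison of effects or between control days. The shares of all probes that passed were 0.265%, 0.00%, 0.0104% and 7.10% in the same order, so counts of 0 among 12 say little. The only epithelial marker measured, ESRP1, a splicing regulator of epithelia, ran from 2.47 to 3.12 in pregnant samples of day 12, from 2.51 to 3.11 in control samples of day 12, from 2.56 to 3.16 in pregnant samples of day 8 and from 2.52 to 3.12 in control samples of day 8. It was at -0.14 ± 0.16 log2 between days in pregnant samples (adjusted p = 0.546), where MET differed.

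Between days in pregnant samples 5 of the 12 markers passed, where 24.3% of all probes did. Higher at day 12 were the smooth muscle marker TAGLN, the endothelial marker PECAM1 (0.92 ± 0.19, adjusted p = 0.00589) and the monocyte marker CD14 (1.01 ± 0.15, adjusted p = 0.00183). The other 3 macrophage and dendritic cell markers did not pass and lay below 0, with CD68 at -0.23, ITGAX at -0.61 and LAPTM5 at -0.17. Lower were the stromal marker LUM (-0.63 ± 0.20, adjusted p = 0.0418) and the platelet marker ITGA2B (-0.84 ± 0.14, adjusted p = 0.00283). CD14, PECAM1 and ITGA2B each passed in 13 of 15 other settings and LUM in 3 of 15. The summed level of the 4 measured macrophage and dendritic cell markers ran from 3.24 to 3.62 in pregnant samples of day 12 and from 3.19 to 3.61 in those of day 8. That of the 2 stromal markers DCN and LUM ran from 3.66 to 4.46 at day 12 and from 4.40 to 4.80 at day 8. These sums add intensities, so they mostly follow the brightest probes and say little about the dimmer markers. In pregnant samples of day 12 LAPTM5 averaged 2.95, CD14 1.47, CD68 -2.94 and ITGAX -5.27, and DCN averaged 4.05 and LUM 0.96. The part of these markers in the difference of MET was not tested.

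Among 565 other named genes, the 5 whose 11 changes within mares were most like MET probe 1 included PRNP (r = 0.820), CD74 (r = 0.813), ANXA2 (r = 0.803) and SULT1E1 (r = 0.800). The 95th percentile of r over all 565 genes was 0.649. PRNP encodes the prion protein, CD74 the invariant chain of class II antigen presentation, ANXA2 a calcium-dependent membrane-binding protein and SULT1E1 an oestrogen sulfotransferase. Over the 22 levels the r of these 4 with MET ran lower, from 0.360 for SULT1E1 to 0.692 for CD74. None of these 4 passed at day 12, where 0.265% of all probes did.

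For TGFB1 the most alike were PTGS2 (r = 0.880), CHGA (r = 0.840), ANGPTL2 (r = 0.804), CYP19A1 (r = 0.804) and POR (r = 0.779), against a 95th percentile of 0.628. PTGS2 encodes the inducible cyclooxygenase of prostaglandin synthesis, CHGA the granule protein chromogranin A, ANGPTL2 an angiopoietin-like secreted protein, CYP19A1 aromatase and POR the electron donor of cytochrome P450 enzymes. PTGS2 had mean changes of 0.27 at day 12 and -0.37 at day 8, beside 0.31 and -0.22 for TGFB1. Of these 5 genes CHGA (adjusted p = 0.0449) and ANGPTL2 (adjusted p = 0.0153) passed at day 12, where 0.265% of all probes did. The 5 genes were picked for the likeness of their changes to TGFB1, over days of unlike mean. Their day 12 values are therefore not independent of that choice. These correlations are over changes of the same 11 mare and day pairs, in which arrays share slides, and they carry no test.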

How the data were processed

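Cy3-labelled RNA of 22 endometrial biopsies was measured on 1-colour arrays. The spot intensities were made by the authors in Agilent Feature Extraction. The submitters' processing notes give its version as 10.5.1.1, and the headers of the day 8 files give 10.7.3.1. The deposited intensity is background-subtracted and detrended but carries no scaling from array to array. A deposited table of processed values by the authors was read as log2, because it correlated at 0.986 to 0.997 with log2 scanner intensity. Its column medians ran from 7.47 to 8.83, its normalization is unknown, and it served as an alternative.

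From the scanner values, log2 intensity minus the 75th percentile of the array was computed. Non-uniform outlier spots (3 to 152 per array) were left out, spots of a probe averaged, and probes kept that were well above background on at least 5 of 22 arrays (38457 of 43603). Symbols came from RefSeq genes of assembly TB-T2T by accession, giving 1 symbol to 1394 probes, several to 1 and none to 42208. No coordinates or sequences are printed, since no matching genome or sequence table was used here.

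Probes were tested with limma 3.58.1 in R 4.3.3 (two-sided). Simulated data checked the pregnancy comparison at day 12 only, with changes set larger than those fitted for MET and TGFB1. The fits between days were not simulated. The pregnancy effects came from 1 fit of all arrays with mare within day as a block, and the days were compared in separate fits of 11 pregnant or 11 control arrays without covariates. The pairing comes from the labels, and same-mare arrays deviated together (r = 0.289 to 0.725 at day 12, 0.321 to 0.817 at day 8, each pregnant array closest to its own mare's control). The lowest r at day 12 was that of mare 3. Both arrays of a mare shared a slide and scan day, so mare and slide cannot be told apart on slides with 1 mare. On slides with 2 mares each pregnant array was closest to its own mare's control as well. The p-values between days measure the spread between these samples. A gene with several probes stands by its probe with the highest mean level, which for MET is probe 1. Alternatives were quantile normalization, normexp background correction (offset 50, on median signals, since the files as used hold no mean signal), other filters and priors, slide and scan day as blocks, and each mare left out. Genes named with values were both members, direct modulators of either pathway, list members past the threshold and the 5 genes most alike in change. The members and all lists were chosen with earlier results of these data known. Some named genes are counted in the lists but not reported here.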

Additional observations from a re-analysis of the deposited data

Results flagged for a closer look

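Of 24 sets of values tested for a sample far from the others, 1 had such a sample. In pregnant mares at day 12 the TGFB1 level of mare 6 was -1.80, well below the other 5, which lay between -1.19 and -0.83. The control sample of mare 6 at day 12 also stood at -1.80, so the change of this mare was -0.0051. Both its arrays lie on slide 3 with those of mare 4, whose TGFB1 level was -1.17 with pregnancy and -1.63 in the control sample. Chance alone marks about 1 in 20 such sets.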

How the results depend on the processing

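TGFB1 kept its direction and stayed short of the threshold under every alternative with an adjusted p in all 5 comparisons, and so did MET probe 1 at day 12. Leaving out 1 mare number, on both days, gave, for MET probe 1, 0.32 to 0.53 at day 12, -0.093 to 0.093 at day 8, 0.27 to 0.51 for the difference of effects, 0.11 to 0.46 between control days and 0.52 to 0.74 between pregnant days, and for TGFB1 0.19 to 0.39, -0.27 to -0.13, 0.41 to 0.60, -0.31 to -0.10 and 0.25 to 0.43. Probes past the threshold then numbered 22 to 977, 0 to 0, 0 to 33, 347 to 2046 and 5478 to 8832, and list genes between pregnant days 0 to 2 (HGF and MET) and 0 to 3 (TGF-beta). MET at day 8, 0.023 on MET probe 1, turned to -0.059 for the mean of its probes (exact sign-flip permutation p = 0.9375). It was -0.10 on MET probe 2 and -0.10 on MET probe 3, a comparison added after seeing the data. Each probe's value was smaller than its SE (0.15, 0.22 and 0.21), and a difference between the probes at day 8 was not tested. Between pregnant days MET probe 1, at 0.67, lost its call with normexp (0.50, adjusted p = 0.356), the authors' table (0.82, adjusted p = 0.403) and scan day taken as a random block (0.69, adjusted p = 0.0650). Mare numbers were not taken as pairs across days, because the labels do not say that a number is the same animal on both days. Same-numbered arrays correlated at -0.153 to 0.327 in controls and -0.0937 to 0.342 in pregnant samples, and 2 of 5 were closest to their own number in each. No slide or scan day held arrays of both days, so these correlations cannot tell whether the animals were the same. With the number as a replicate block MET gave 0.64 (adjusted p = 0.0774), and 31 probes passed between control days and 5093 between pregnant days. Unadjusted exact permutations passed for the mean of the MET probes between control days (0.77, p = 0.0238) and for the difference of effects (MET 0.64, p = 0.0433; TGFB1 0.52, p = 0.0195). At day 12, 102 probes passed, but 13 with normexp, 45 with the authors' table, 218 with a filter on all 22 arrays, 287 with a trended robust prior, 41 with no replicate block and 9 with 1 day alone. For the difference of effects it was 4, but 0 with quantile normalization, the authors' table, the 22-array filter or no replicate block, 2 with no filter or slide as a fixed block, and 11 with the trended prior. Between control days it was 2732, but 4458 with quantile normalization, 1620 with normexp, 282 with the authors' table, 772 with slide and 211 with scan day as the random block. Between pregnant days it was 9332, but 388 with normexp, 836 with the authors' table and 3437 with scan day taken as a random block. There the HGF and MET list gave 2 genes, but 0 with normexp, the authors' table or scan day as a random block, and 1 with the mare number as a replicate block. The TGF-beta list gave 1, but 0 with quantile normalization, normexp, the authors' table, no filter, mare number, slide or scan day as a block, and 2 with the 22-array filter or the trended prior. Beyond what fewer probes or arrays account for, the cause was not tested. All 4 probes were well above background on every array, but MET probes 2 and 3 reached down to 60.6 and 59.5 units. Between pregnant days all 3 MET probes differed less with normexp. The values were 0.50 against 0.67 on MET probe 1, 1.61 against 1.83 on MET probe 2 and 1.49 against 1.72 on MET probe 3. Between control days they were 0.29 against 0.28, 0.86 against 1.04 and 0.75 against 0.98 in the same order. The part of low signal in these changes was not tested.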
